A study of Mus musculus with 21 samples.

Results

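The 38 genes described here belong to the program that the transcription factor ATF4 directs when cells are short of amino acids or under protein stress. They were taken by gene symbol from the 22483 genes of the deposited tables, and 36 of the 38 passed the filter on low counts that left 12360 genes to be tested. The stress branch holds 15 genes, namely the transcription factors Atf4, Ddit3 (CHOP), Atf5, Atf3, Cebpb and Cebpg and the stress targets Trib3, Chac1, Sesn2, Nupr1, Vldlr, Grb10, Stc2, Eif4ebp1 and Herpud1. The amino acid branch holds 23 genes, namely 10 enzymes (Asns, Psat1, Phgdh, Psph, Shmt2, Mthfd2, Aldh18a1, Pycr1, Cth and Cbs), 7 transporters (Slc7a11, Slc7a5, Slc7a1, Slc3a2, Slc1a4, Slc1a5 and Slc38a2) and 6 cytosolic tRNA synthetases (Cars, Aars, Gars, Nars, Sars and Wars). Stc2 and Cbs, with at most 3 counts in any library, were the members that were not tested.

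MEDEP cells are a mouse erythroid progenitor line, and all libraries came from 1 line, BRC5. At 0 h the cells were proliferating in stem cell factor (SCF) and dexamethasone, a glucocorticoid. The other groups had SCF and dexamethasone withdrawn and were given Epo (erythropoietin, which drives progenitors to become red cells) at 4 U/ml for 12, 24, 36, 48 or 72 h. A further group received Epo for 12 h together with succinyl acetone (SA), which blocks heme synthesis at the step that uses aminolevulinic acid; its dose is not given in the sources used here. Polyadenylated RNA was sequenced from 3 biological replicates per group, 21 libraries in all.

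ATF4 protein is made mainly when the translation factor eIF2 is phosphorylated, which lowers general protein synthesis but favours translation of the Atf4 mRNA. In red cell precursors the main eIF2 kinase is HRI, the product of Eif2ak1, which is restrained by heme and so ties globin synthesis to the heme supply. ATF4 pairs with C/EBP family proteins on composite DNA elements and turns on stress factors such as CHOP together with genes that make, import and charge amino acids. Because ATF4 is controlled in translation, the mRNA levels given here do not measure its protein.

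Libraries held 16695756 to 39316031 estimated counts. The biological coefficient of variation between replicates, as 1 value pooled over all 7 groups, was 11.6%. Replicates were less alike late in the course, with rank correlations of 0.997 at 0 h and 0.978 to 0.988 at 72 h. Summed markers of the red cell lineage, 9 of 10 found, went from 881 to 1060 CPM (counts scaled to a common library total) at 0 h to between 377000 and 704000 CPM at 72 h. Globin genes took 0.0613% of all counts in the 0 h libraries, 22.6% in those at 36 h and 35.2% in those at 72 h. Counts were compared after scaling by trimmed means (TMM), which centres the bulk of genes, and CPM is on that scale throughout. The deposited TPM values, which correct for transcript length, divide instead by everything in the library, globin included. On the log2 TPM scale the median gene fell by 1.84 between 24 and 36 h, and over the whole course it fell by 3.27. A gene that rose in CPM while its TPM fell thus rose relative to most other genes but lost share of all transcripts, and such cases are named below. Bulk RNA gives no cell numbers or RNA per cell, so a change in the mix of cells and a change within cells cannot be told apart.

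The DNA element that C/EBP and ATF proteins bind together has the core TGATGNAA, and it was searched on both strands from 250 bases before to 50 bases after each RefSeq transcription start (GRCm38.p6). RefSeq windows were found for 31 of the 38 genes, and 12 of them (38.7%) held the core, against 1219 of 27025 genes (4.51%) over all windows of that length. The share was 6 of 14 (42.9%) in the stress branch and 6 of 17 (35.3%) in the amino acid branch. Some windows with a match are shown as 30 bases in the gene's own direction, 5′ to 3′, with the matched letters in capitals, for 5 genes of the stress branch and for Asns and Gars of the amino acid branch. Where the core lies on the other strand it reads backward and complementary, with CATCA at its end. A match is a description of these letters and not evidence of binding.
Trib3, chr2:152344028-152344057, minus strand: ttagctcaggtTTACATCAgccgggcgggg
Nupr1, chr7:126625562-126625591, minus strand: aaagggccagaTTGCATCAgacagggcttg
Chac1, chr2:119351038-119351067, plus strand: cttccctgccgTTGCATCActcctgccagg
Atf3, chr1:191183425-191183454, minus strand: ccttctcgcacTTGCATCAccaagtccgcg
Herpud1, chr8:94386306-94386335, plus strand: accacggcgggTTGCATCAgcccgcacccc
Asns, chr6:7693214-7693243, minus strand: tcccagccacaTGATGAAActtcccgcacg
Gars, chr6:55037960-55037989, plus strand: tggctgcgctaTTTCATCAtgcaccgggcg

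Nupr1, Chac1, Atf3 and Herpud1 all carried the 8 letters TTGCATCA, and the first base of the match lay 110 bases before the start in both Nupr1 and Atf3 and 112 bases before it in Herpud1. Trib3 had its match 15 bases after the RefSeq start and Asns 23 bases before it. GENCODE places the start of Trib3 at chr2:152344032, and by that annotation the Trib3 match lies before the start. Slc7a11, the cystine transporter, held matches 66 and 47 bases before its start in opposite orientations, shown in the 250 bases upstream of it.
Slc7a11, chr3:50443614-50443863, minus strand: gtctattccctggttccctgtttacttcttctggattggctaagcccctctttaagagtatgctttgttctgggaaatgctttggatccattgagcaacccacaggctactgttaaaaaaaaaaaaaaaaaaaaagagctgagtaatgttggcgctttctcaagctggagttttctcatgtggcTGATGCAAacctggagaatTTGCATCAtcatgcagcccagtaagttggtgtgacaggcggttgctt

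**Figure D1:**
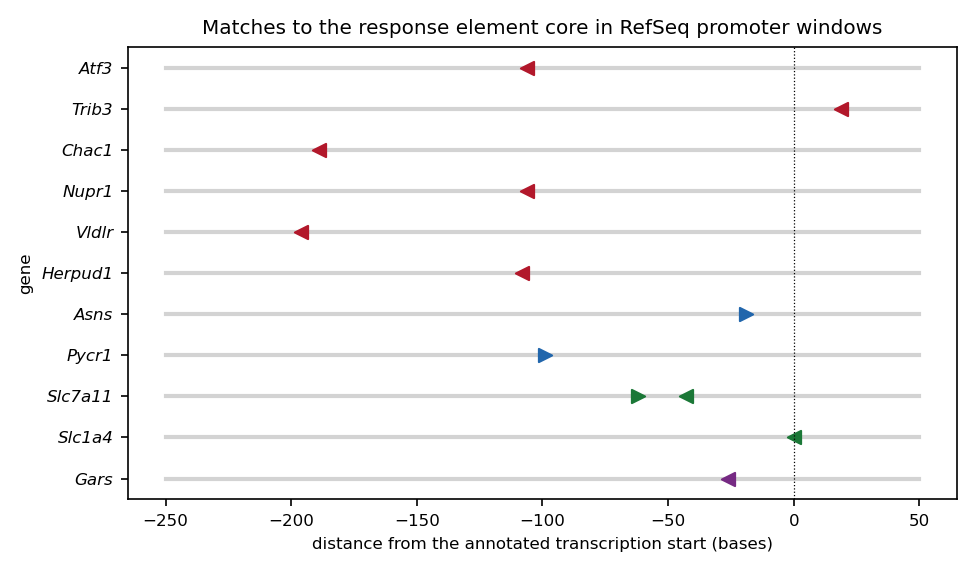
Distance in bases from the transcription start (x axis) of each TGATGNAA match, 1 line per gene shown, for 11 of the 12 genes that held one, with the window running from 250 bases before to 50 bases after the start. Slc7a11 has 2 matches and the other 10 genes shown have 1.

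The stress and amino acid branches followed different courses. Each library was summarised, as a description, by the median over a branch's genes of log2(CPM + 1) minus the mean at 0 h. In the stress branch this median lay at 0.45, 0.47 and 0.54 in the 12 h libraries, 0.39, 0.93 and 0.63 at 24 h, 2.92, 2.80 and 2.22 at 36 h, 3.77, 2.93 and 2.95 at 48 h, and 3.43, 3.41 and 3.24 at 72 h. All 9 libraries from 36 h on were above every earlier library. In the amino acid branch the median stayed between -0.19 and 0.09 through 24 h, reached 0.54, 0.73 and 0.20 at 36 h, and lay at -0.40, -0.25 and -0.21 at 72 h, below every other Epo-only library. From 36 h on, the lowest stress value (2.22) lay above the highest amino acid value (0.73). On the TPM scale the stress median at 72 h was 0.16, -0.39 and 0.10 and the amino acid median -3.41, -4.03 and -3.43, so the gap between branches was there on both scales.

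**Figure D2:**
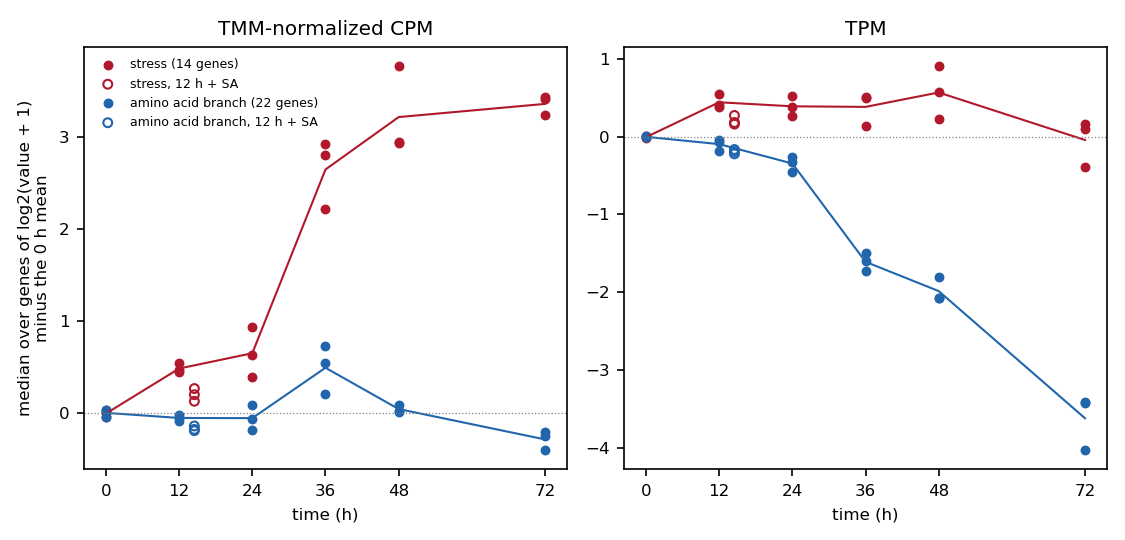
Median over the genes of each branch of log2(CPM + 1) minus the gene's 0 h mean (y axis), 1 point per library, by hours of Epo (x axis), with the same for TPM in the right panel, lines through the group means and open points for 12 h with SA. In CPM, stress points lie at 2.22 or above in all libraries from 36 h on, and amino acid points lie between -0.40 and 0.73 throughout.

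The time of highest mean CPM also differed. In the stress branch 7 of 14 tested genes were highest at 72 h, 5 at 48 h and 2 at 36 h, and none earlier. In the amino acid branch 7 of 22 were highest at 0 h, 6 at 36 h, 4 at 48 h, 3 at 72 h and 1 each at 12 and 24 h. By TPM, 12 of the 22 amino acid genes and 6 of the 14 stress genes were highest at 0 h. In CPM the highest group mean exceeded the lowest 248-fold for Trib3, 135-fold for Chac1, 130-fold for Atf5 and 119-fold for Ddit3. For Nupr1 the lowest mean rested on too few counts for such a ratio. The ranges were narrower in mean TPM, from 1.27 to 36.7 for Trib3, 8.20 to 111 for Atf5 and 36.5 to 311 for Ddit3. Psat1 at 50.6-fold and Phgdh at 47.5-fold had the widest CPM ranges of the amino acid branch, while Slc38a2, a glutamine carrier, spanned 1.24-fold in CPM. The mean TPM of Slc38a2 went from 83.7 at 0 h to 4.73 at 72 h.

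**Figure D3:**
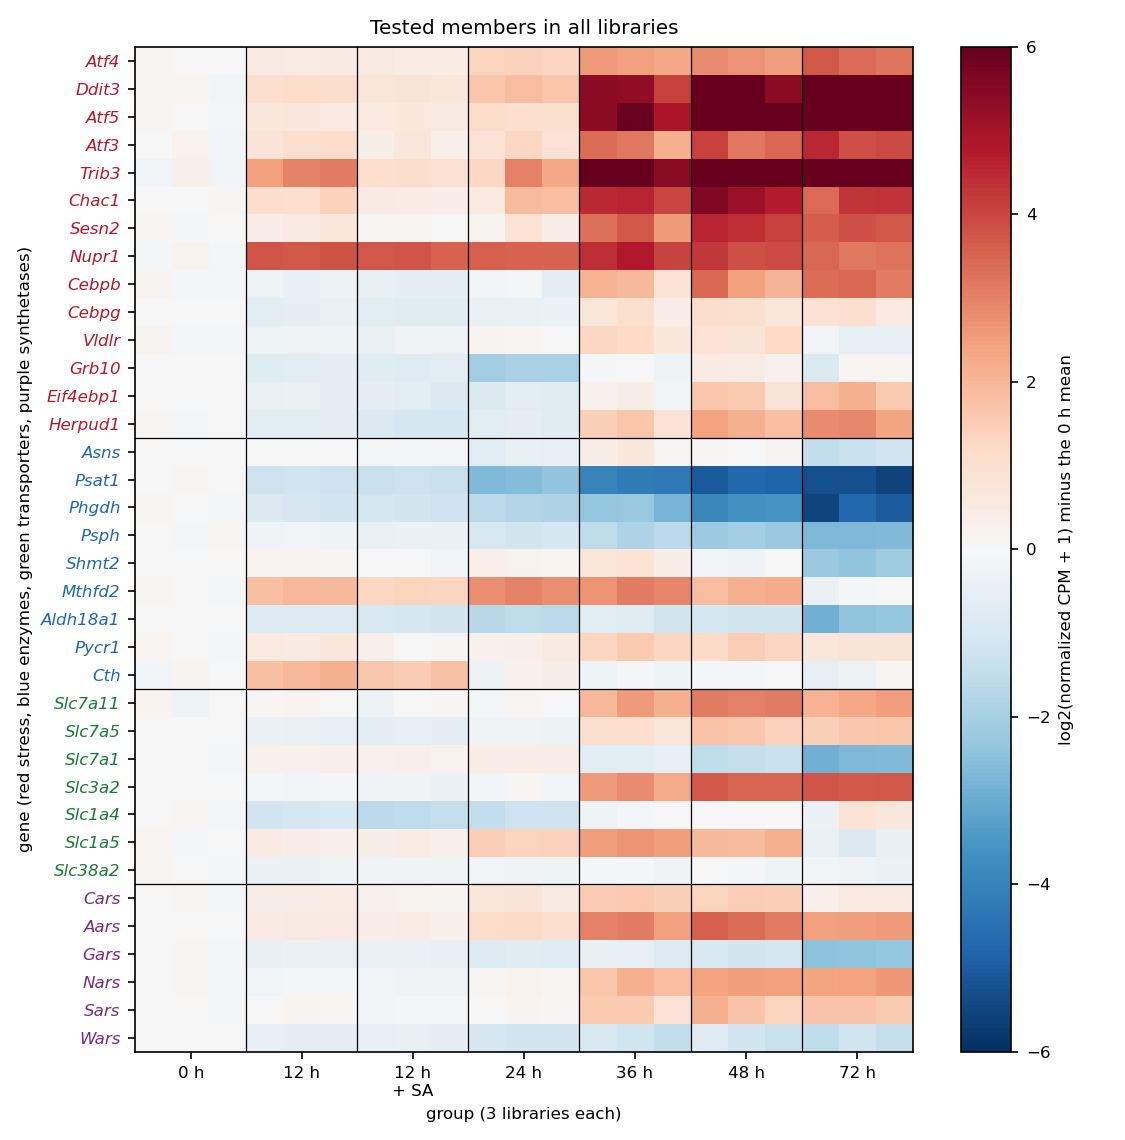
Each tested gene (lines, grouped by role) in each of the 21 libraries (columns, ordered by time, with SA), coloured by its log2 level relative to the gene's own 0 h mean. Ddit3, Atf5, Trib3, Chac1 and Sesn2 turn high from 36 h on, and Psat1 and Phgdh fall from 12 h on.

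After 12 h of Epo, 15 of the 36 tested genes were higher than at 0 h and 13 were lower, at an adjusted p of at most 0.05. Over all 12360 genes, 25.3% were called higher and 27.6% lower. The stress branch had 8 higher and 4 lower (median log2 change 0.53) and the amino acid branch 7 and 9 (median -0.06). Nupr1 and Trib3 rose most, and Cth and Mthfd2 rose with them, while Psat1, Phgdh, Slc1a4 and Aldh18a1 fell. No direction called at this step was the opposite in TPM.

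From 12 to 24 h, 7 genes were called higher and 9 lower, against 19.1% and 22% of all genes. The enzymes had 1 higher and 6 lower, of 9. Atf4 (0.87), Slc1a5 (1.02), Mthfd2 (0.93) and Aars (0.58) rose further, and Cth (-3.03), Grb10 (-1.36), Psat1 (-1.34), Psph (-0.91), Aldh18a1 (-0.80) and Asns (-0.51) fell. Cars also rose, by 0.29, on the CPM scale, although its TPM change was -0.0043. The calls for Ddit3 (0.73, adjusted p = 0.0247) and Vldlr (0.71, adjusted p = 0.0413) were lost when any 12 h library or 24 h replicate 2 was left out, at adjusted p from 0.0544 to 0.0866 for Ddit3 and from 0.0793 to 0.136 for Vldlr, and Vldlr was also lost without 24 h replicate 1.

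Between 24 and 36 h all 14 tested stress genes were called higher by count and none lower, 5 of them with a TPM change below 0, with log2 changes from 0.96 to 4.53 and a median of 2.17. Over all genes 34.1% were called higher and 39% lower, and the median change of all genes was -0.03. The amino acid branch had 13 of 22 higher and 4 lower, with a median of 0.80: 4 enzymes, 5 transporters and 4 synthetases were higher, and Psat1, Phgdh, Psph and Slc7a1 were lower. In TPM, 5 of the 13 stress genes in that table (Atf4, Nupr1, Cebpg, Grb10 and Eif4ebp1) and 11 of 12 amino acid genes called higher had changes below 0. These 11 were Asns, Shmt2, Aldh18a1, Pycr1, Slc7a5, Slc1a4, Slc1a5, Cars, Aars, Nars and Sars. The stress genes also called higher in TPM were Ddit3, Atf5, Trib3, Chac1 and Sesn2, while Atf3, Cebpb and Herpud1 were above 0 there and not called. Every one of these genes lay above the TPM median of all genes. Atf4, Ddit3, Atf5, Trib3, Nupr1 and Chac1 all had their lowest 36 h value in replicate 3, the library with the fewest counts. Megakaryocyte markers, 6 of 6 found and Ppbp at 0, summed to 102 to 117 CPM at 24 h and 1090 to 1390 CPM at 36 h, and stromal markers, 11 of 11 found, reached 41.6 CPM in replicate 1 at 36 h and at most 1.71 CPM at any other time. The part of these markers in the result was not tested.

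From 36 to 48 h the branches went apart: 9 stress genes were called higher and 0 lower, while 6 amino acid genes were higher and 9 lower, including 6 of 9 enzymes. For all 36 genes this made 15 higher and 9 lower, against 20% and 29.7% of all genes. Grb10, Slc7a5, Aars, Nars and Sars were among those higher by count and had TPM changes below 0. Leaving out 1 library at a time gave 10 to 16 genes called higher. From 48 to 72 h, 5 genes were called higher and 20 lower, against 24.7% and 34.5% of all genes. The amino acid branch supplied 15 of the 20, among them 8 of 9 enzymes (enzyme median -1.40). Atf4, Eif4ebp1, Herpud1 and Slc1a4 were higher by count at this step but had TPM changes of -0.0028, -0.17, -0.08 and -0.15, and only 2 genes were called higher without 48 h replicate 3 or without 72 h replicate 2.

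Over the whole course, 72 h against 0 h, 21 genes were called higher and 12 lower, against 43.3% and 46.5% of all genes. The stress branch had 12 higher and 1 lower (median 3.73), and the amino acid branch 9 higher and 11 lower (median -0.41), with 1 enzyme higher and 6 lower. In TPM, 12 of the 20 genes called higher and present in that test lay below 0. These 12 were Atf4, Cebpb, Cebpg, Eif4ebp1 and Herpud1 of the stress branch and Pycr1, Slc7a5, Slc1a4, Cars, Aars, Nars and Sars of the amino acid branch. This comparison shares its 0 h and 72 h libraries with the stepwise ones.

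**Figure D4:**
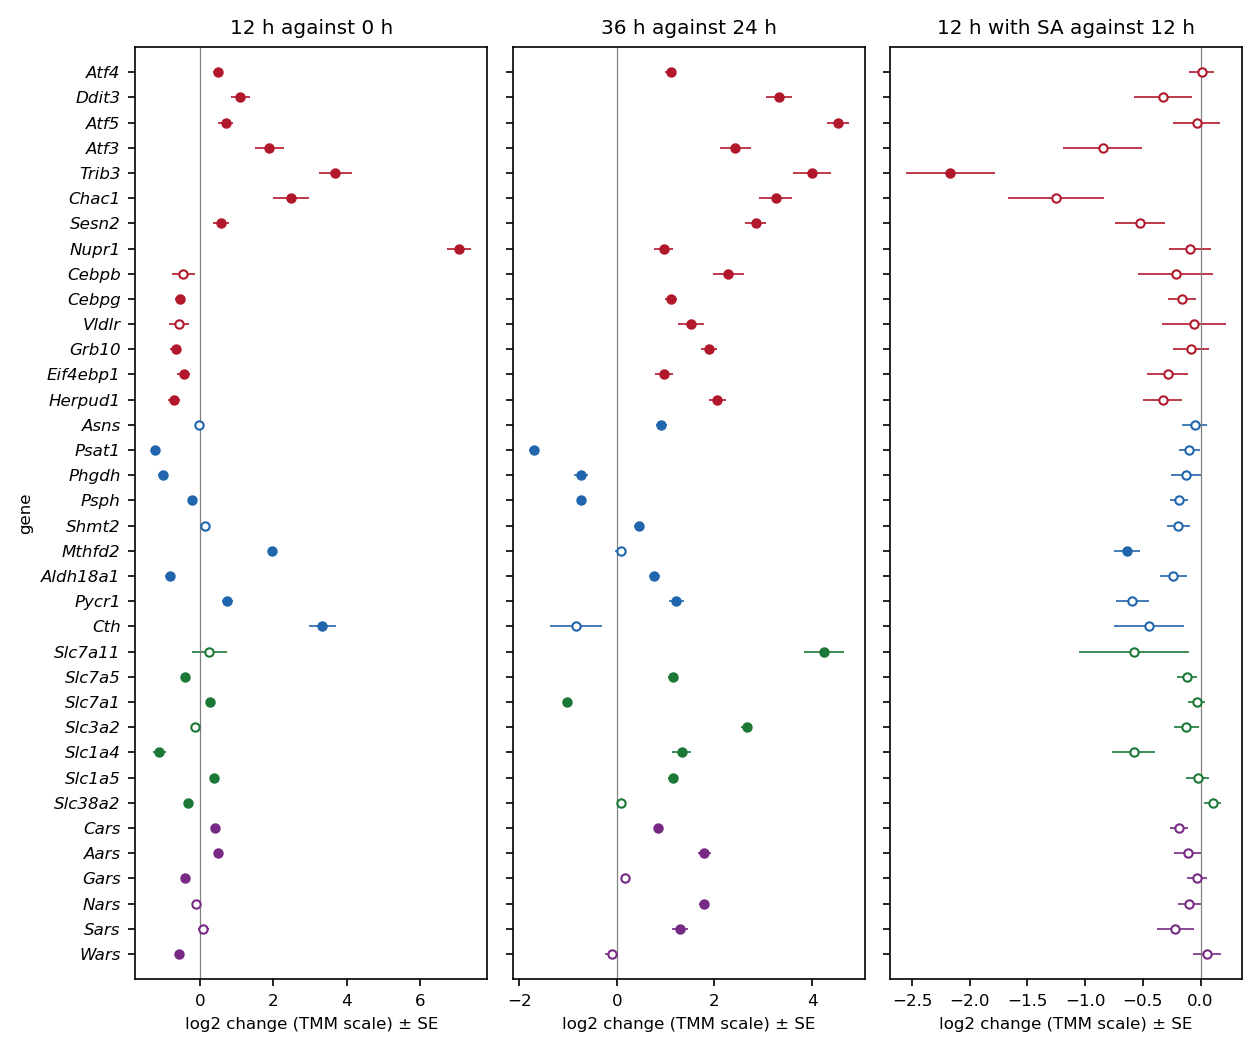
Log2 change with its standard error (x axis) of each tested gene (y axis, coloured by role) in 3 panels (the steps into 12 and 36 h, and the effect of SA), with filled points for called genes. On this CPM scale, between 24 and 36 h every tested stress gene lies to the right of 0, from 0.96 to 4.53, while Psat1, Phgdh, Psph and Slc7a1 lie to the left.

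Atf4 itself, on chromosome 15, rose through the course. Its CPM in the 3 libraries of each time was 83.5, 79.5 and 78.3 at 0 h, 112, 111 and 114 at 12 h, 206, 213 and 196 at 24 h, 478, 442 and 399.5 at 36 h, 582, 529.5 and 455 at 48 h, and 1089, 857 and 749 at 72 h. Groups did not overlap except 36 h with 48 h. The log2 change was 0.48 ± 0.111 (SE) at 12 h (adjusted p = 0.000946), 1.10 ± 0.111 from 24 to 36 h (adjusted p = 1.86e-08), 0.78 ± 0.111 from 48 to 72 h (adjusted p = 3.74e-06) and 3.48 ± 0.121 over the course. In TPM the change at 12 h was 0.44 and not called (adjusted p = 0.0685). On that scale Atf4 was highest at 24 h, at 214 ± 4.7 (SD, n = 3), and stood at 107 ± 1.63 at 0 h and 81.0 ± 32.0 at 72 h. Its mean TPM was 105 at 36 h and 77.8 at 48 h. The TPM change was -1.02 from 24 to 36 h and -0.48 over the whole course. From 48 to 72 h it was -0.0028 and not called (adjusted p = 0.993), so no further fall was seen there. The step from 36 to 48 h, 0.25 (adjusted p = 0.0684), was not called, and it was called with the replicate number as a block (adjusted p = 0.0264), without 48 h replicate 3 (0.34, adjusted p = 0.0199), with DESeq2 size factors (0.37, adjusted p = 0.00819) and by DESeq2's Wald test (adjusted p = 0.00263).

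Ddit3, which encodes CHOP, a factor linked to cell death under lasting stress, rose at each of the 5 steps. It read 10.8, 11.3 and 9.24 CPM at 0 h, 21.7, 23.3 and 22.3 at 12 h, 35.0, 40.8 and 35.7 at 24 h, 473, 453 and 197 at 36 h, 1032, 779 and 485 at 48 h, and 1387, 1312 and 1016 at 72 h. The 36 h values lay above all earlier ones, with replicate 3 well below the other 2. The change from 24 to 36 h was 3.33 ± 0.267 (adjusted p = 5.72e-10), and the TPM change was 1.09. Per length, Ddit3 became the most abundant transcript of the 38 at 72 h, at 311 ± 108 TPM, ahead of Slc3a2 at 167 ± 51.0 TPM with overlap at this spread; at 0 h it had 36.5 ± 1.42 TPM. The later rise from 48 to 72 h (0.69, adjusted p = 0.0188) was not called without 48 h replicate 3 (0.44, adjusted p = 0.125), 72 h replicate 1 (adjusted p = 0.0622) or 72 h replicate 2 (adjusted p = 0.0545). In TPM neither this rise (0.04, adjusted p = 0.914) nor the one from 36 to 48 h (0.45, adjusted p = 0.119) was called. Ddit3 shares exon sequence with Mars on the opposite strand, whether counting used strand is not given in the sources used here, and Mars changed by 0.44 in CPM and -1.63 in TPM from 24 to 36 h.

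Atf5, an ATF4-related factor of the mitochondrial stress response, had the largest log2 change of the 36 genes from 24 to 36 h. Its CPM was 7.75, 7.11 and 7.00 at 0 h, 11.6, 12.5 and 11.4 at 12 h, 16.8, 15.5 and 15.1 at 24 h, 344, 501 and 249 at 36 h, 921, 1126 and 729 at 48 h, and 714, 1167 and 965 at 72 h. The 48 and 72 h groups overlapped and every other neighbouring pair of times was apart. The step at 36 h was 4.53 ± 0.223 (adjusted p = 3.34e-13) with a TPM change of 2.25, and it rose again by 1.34 ± 0.194 to 48 h (adjusted p = 9.29e-06). Its opposite-strand neighbours Il4i1 and Nup62, which share exon sequence with it, changed by 1.01 and 0.49 in CPM from 24 to 36 h, where Nup62 was at -1.47 in TPM.

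Trib3, a pseudokinase that is induced by ATF4 and CHOP, was called higher at 12 h and again at 36 and 48 h. It measured 0.916, 1.62 and 0.889 CPM at 0 h, 10.5, 15.7 and 17.1 at 12 h, 4.05, 16.3 and 9.48 at 24 h, 164, 222 and 88.3 at 36 h, 360.0, 292 and 199 at 48 h, and 176, 226 and 194 at 72 h. The 24 h libraries were spread over 4.05 to 16.3 CPM and overlapped those at 12 h. The first step was 3.68 ± 0.445 (adjusted p = 5.8e-07) and the step at 36 h 4.00 ± 0.386 (adjusted p = 9.26e-09), with TPM changes of 2.86 and 1.91. From 12 to 24 h the change of -0.54 was not called (adjusted p = 0.251), and without 24 h replicate 2 it was -1.12 (adjusted p = 0.0241). The rise from 36 to 48 h (0.84, adjusted p = 0.0444) was lost without any one of 4 of the 6 libraries, at adjusted p from 0.084 to 0.215, and in TPM (0.21, adjusted p = 0.56).

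Nupr1, a small stress-induced chromatin protein, was near 0 before Epo and, in CPM, high from 12 h on. It had 0.0382, 0.305 and 0.0185 CPM at 0 h, from 2, 12 and 1 counts, and 14.2, 13.7 and 14.7 CPM at 12 h. Later values were 12.5, 11.9 and 12.0 at 24 h, 22.9, 29.9 and 17.4 at 36 h, 19.8, 15.3 and 15.8 at 48 h, and 11.3, 9.14 and 9.75 at 72 h. All libraries with Epo lay far above all 0 h libraries. The change at 12 h was 7.05 ± 0.332 (adjusted p = 4.15e-13), the largest of the 36 genes at that step, and its 0 h level rests on those few counts. The rise from 24 to 36 h, 0.96 on the CPM scale, was -1.03 in TPM. Its mean TPM was highest at 12 h, at 56.1, and then went down to 39.3 at 24 h, 18.8 at 36 h, 9.68 at 48 h and 3.68 at 72 h.

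**Figure D5:**
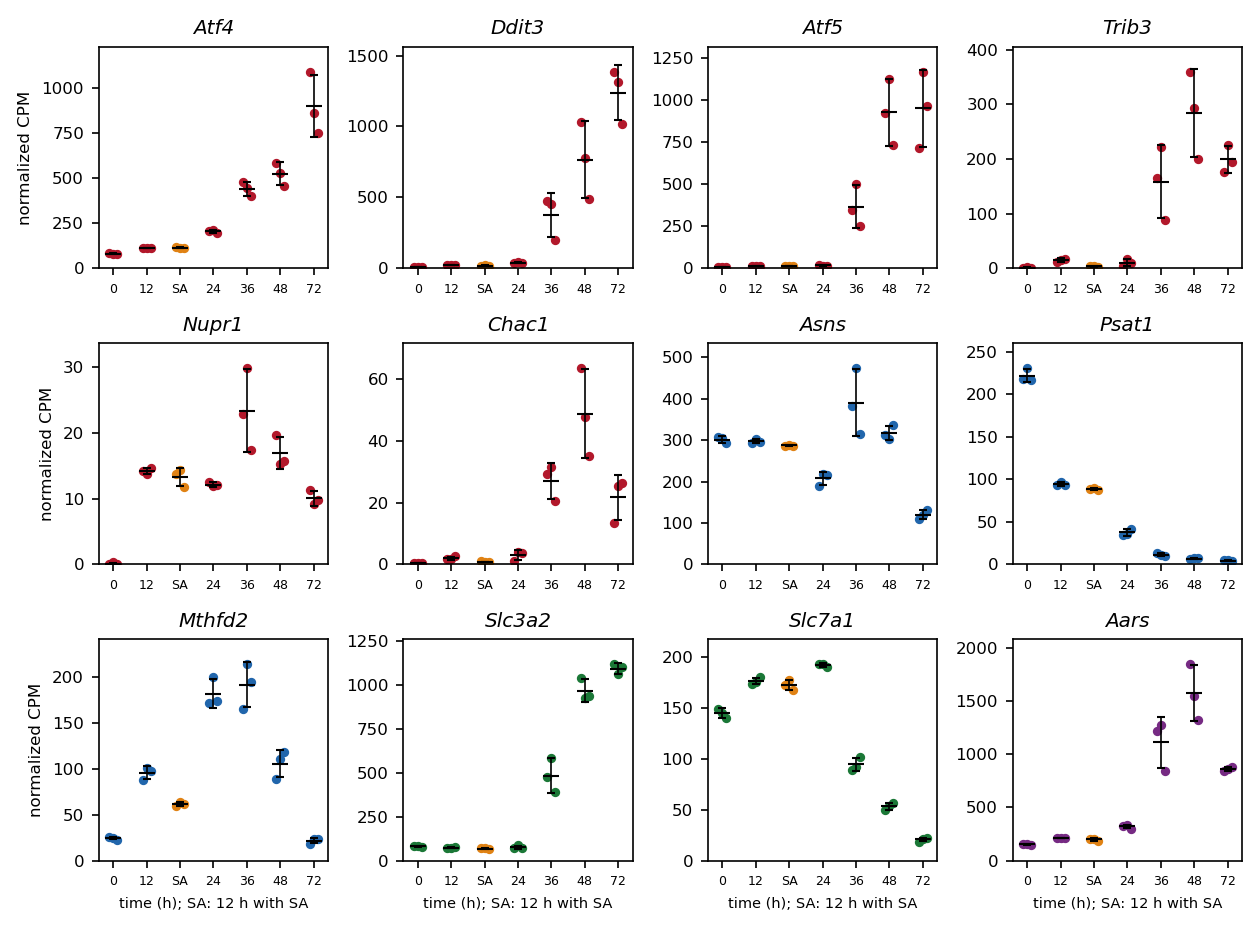
CPM in every library (points; linear axis from 0) by hours of Epo and for 12 h with SA (orange), with the group mean and SD as bars, for 12 genes of both branches. Ddit3, Atf5 and Trib3 jump between 24 and 36 h, while Psat1 goes down from 222 CPM at 0 h to 4.39 CPM at 72 h.

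The other stress genes mostly followed the step at 36 h. Atf3, an early stress repressor, rose by 1.88 at 12 h and 2.43 at 36 h, from a mean of 0.558 CPM at 0 h to 26.3 CPM at 72 h, with a TPM change at 36 h of 0.22 that was not called (adjusted p = 0.409). Chac1, which degrades glutathione, rose by 2.47 and 3.26 at the same steps and fell by 1.17 from 48 to 72 h. Sesn2, a leucine sensor that restrains mTORC1, rose by 2.84 at 36 h and 1.13 at 48 h and fell by 0.65 at 72 h. Its rise at 12 h (0.57, adjusted p = 0.0305) was lost without any 0 h library or 12 h replicate 3, at adjusted p up to 0.112. Cebpb rose by 2.28 at 36 h and 1.12 at 48 h in CPM, the latter not called without 48 h replicate 1 (0.58, adjusted p = 0.0573). Its TPM changes of 0.12 (adjusted p = 0.607) and 0.36 (adjusted p = 0.163) were not called, and Tmem189, on the opposite strand with shared exon sequence, changed by 1.61 in CPM and -0.40 in TPM at 36 h.

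Some stress genes first went down. Herpud1, an endoplasmic reticulum degradation factor, fell by 0.70 at 12 h and rose by 2.06 at 36 h in CPM, with a TPM change of 0.01 that was not called (adjusted p = 0.941). Grb10, a signalling adaptor, changed by -0.66 at 12 h and -1.36 at 24 h and then rose by 1.88 in CPM at 36 h, where its TPM change was -0.18. Cebpg, the C/EBP partner of ATF4, fell by 0.55 at 12 h and rose by 1.10 at 36 h in CPM, with a TPM change of -0.76. Eif4ebp1, the inhibitor of cap-dependent translation, rose by 0.96 at 36 h, with a TPM change of -0.92, and by 1.25 at 48 h on the CPM scale. Vldlr, a lipoprotein receptor at no more than 3.03 CPM in any group mean, fell by 2.40 from 48 to 72 h.

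Psat1 and Phgdh, the enzymes that open the serine synthesis pathway, fell at every step. Psat1 measured 218, 231 and 216 CPM at 0 h, 93.5, 96.9 and 93.4 at 12 h, 34.4, 36.1 and 41.8 at 24 h, 13.0, 10.98 and 10.3 at 36 h, 5.74, 7.45 and 7.04 at 48 h, and 4.82, 4.67 and 3.67 at 72 h. Each group lay below the one before it without overlap. The step from 24 to 36 h, where all 14 stress genes were higher, was -1.71 ± 0.104 (adjusted p = 9.12e-12), and the whole course was -5.66 ± 0.122 (adjusted p = 3.03e-19).

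Phgdh, the first enzyme of that pathway, followed with 113, 106 and 99.0 CPM at 0 h, 57.8, 52.8 and 47.0 at 12 h, 34.0, 31.1 and 29.0 at 24 h, 20.2, 21.3 and 14.6 at 36 h, 6.25, 7.52 and 7.92 at 48 h, and 1.33, 3.05 and 2.34 at 72 h. No neighbouring times overlapped. Its change over the course was -5.57 ± 0.188 (adjusted p = 9.12e-17). Psph, which completes serine synthesis, went from a mean of 18.8 CPM at 0 h to 2.08 CPM at 72 h and changed by -0.91 at 24 h and -0.73 at 36 h. In TPM, Psat1 went from 227 ± 10.1 to 0.414 ± 0.12 and Phgdh from 182 ± 5.94 to 0.206 ± 0.0452.

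The mitochondrial one-carbon enzymes Mthfd2 and Shmt2 both fell in CPM after 36 h. Mthfd2 had risen from 12 h on, and Shmt2 was called higher at 36 h. Mthfd2, which prepares one-carbon units for purine synthesis and is named with every library after its values were seen, read 25.5, 24.9 and 22.9 CPM at 0 h, 87.7, 101 and 97.8 at 12 h, 172, 200.4 and 174 at 24 h, 166, 214 and 195 at 36 h, 89.4, 110.3 and 118 at 48 h, and 18.3, 23.3 and 23.7 at 72 h. The 72 h libraries overlapped the 0 h ones, and those between lay above both. The change was 1.97 ± 0.118 at 12 h (adjusted p = 1.79e-11) and -2.28 ± 0.124 from 48 to 72 h (adjusted p = 8.48e-12). Shmt2, which makes one-carbon units from serine, was not called at 12 or 24 h. Its mean rose from 188 CPM at 24 h to 256 CPM at 36 h, while its mean TPM went from 143 to 46.1. It then changed by -0.76 at 48 h and -2.16 at 72 h. Shmt2 shares exon sequence with Ndufa4l2 on the opposite strand, which was too low to be tested.

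Cth, which makes cysteine from cystathionine, was high at 12 h only. It measured 0.344, 0.635 and 0.481 CPM at 0 h, 4.17, 4.91 and 5.52 at 12 h, and 0.196, 0.746 and 0.904 at 24 h, and 0.534 CPM or less in every later library. The 12 h libraries stood above all other Epo libraries without SA. The rise was 3.33 ± 0.363 (adjusted p = 1.36e-07) and the fall -3.03 ± 0.36 (adjusted p = 1.29e-06). These levels rest on few reads, with 10, 33 and 29 counts at 24 h.

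Asns, asparagine synthetase and a textbook ATF4 target, had the highest TPM of the 38 genes at 0 h, 426 ± 3.33. Its mean CPM was 301 at 0 h, 297 at 12 h, 208 at 24 h, 390.3 at 36 h, 317 at 48 h and 120.0 at 72 h. It rose by 0.91 at 36 h in CPM, where its TPM change was -1.13, and fell by 1.40 at 72 h. Of the proline enzymes, Aldh18a1 fell by 0.82 at 12 h, and Pycr1 went from a mean of 2.68 CPM at 0 h to 8.57 CPM at 36 h, while its TPM mean went from 3.25 at 24 h to 1.83 at 36 h.

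The transporters split. Slc3a2, the heavy chain shared by several amino acid exchangers, had 80.3, 82.8 and 80.1 CPM at 0 h, 73.9, 71.6 and 74.9 at 12 h, 71.2, 86.3 and 72.4 at 24 h, 477, 585 and 391 at 36 h, 1042, 924 and 937 at 48 h, and 1119, 1059.7 and 1101 at 72 h. The libraries up to 24 h without SA stayed within 71.2 to 86.3 CPM and all later ones were at least 391 CPM. The step at 36 h was 2.66 ± 0.114 (adjusted p = 4.46e-14), and the TPM change was 0.62. Of the amino acid genes called higher at that step and present in the TPM test, Slc3a2 alone did not have a TPM change below 0.

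Slc7a11, which pairs with Slc3a2 to import cystine, was at or below 0.44 CPM before 36 h. Its CPM lay between 0.102 and 0.44 in the 9 libraries from 0 to 24 h without SA, then read 3.96, 6.45 and 4.51 at 36 h, 9.89, 9.27 and 9.84 at 48 h, and 4.37, 5.32 and 6.14 at 72 h. The 36 h libraries lay above every earlier one. The change was 4.25 ± 0.415 (adjusted p = 1.13e-08), the largest of the amino acid branch. Its fall from 48 to 72 h (-0.87, adjusted p = 0.0243) was not called without 48 h replicate 1 or 72 h replicate 1, and its further rise at 48 h (0.94, adjusted p = 0.0189) was lost without 36 h replicate 1, 36 h replicate 3 or 48 h replicate 1, at adjusted p from 0.0508 to 0.0814.

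Slc7a1, the main carrier of arginine and lysine, fell from 36 h on. It measured 149, 145 and 140.1 CPM at 0 h, 174, 176 and 180.0 at 12 h, 193, 193 and 189.6 at 24 h, 89.4, 91.9 and 102 at 36 h, 49.4, 53.8 and 56.1 at 48 h, and 18.7, 21.5 and 22.03 at 72 h. Every library from 36 h on was below every earlier library. The changes were -1.02 ± 0.0744 at 36 h (adjusted p = 1.3e-10) and -1.36 ± 0.0798 at 72 h (adjusted p = 2.26e-11). Slc1a5, a glutamine carrier, had its highest mean CPM, 400.0, at 36 h but its highest mean TPM, 107, at 24 h, with 55.4 TPM at 36 h, and its CPM fell by 2.59 from 48 to 72 h. Slc7a5, the leucine carrier that also pairs with Slc3a2, rose by 1.15 at 36 h in CPM, with a TPM change of -0.89. Slc1a4, a neutral amino acid carrier, fell by 1.10 at 12 h from a mean of 16.7 CPM. Slc38a2 changed by 0.09 at 36 h and was not called (adjusted p = 0.313), with a TPM change of -1.94.

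The tRNA synthetases, which load amino acids onto tRNA, were also divided. Aars (alanine) had 156, 152 and 147 CPM at 0 h, 215, 217 and 213 at 12 h, 329, 334 and 301 at 24 h, 1221, 1277 and 842 at 36 h, 1851, 1546 and 1327 at 48 h, and 842, 867 and 885 at 72 h. Each time up to 48 h lay above the one before it, and 72 h overlapped 36 h. The step at 36 h was 1.79 ± 0.127 (adjusted p = 8.53e-11) in CPM, with a TPM change of -0.31. Nars (asparagine) went from 169.6, 181 and 164 CPM at 0 h through 153, 165 and 162 at 12 h and 179, 201 and 180.3 at 24 h to 550.4, 764 and 619 at 36 h, 928, 995 and 945 at 48 h, and 902, 912 and 1049 at 72 h. It rose at 36 h by 1.79 ± 0.101 (adjusted p = 2.77e-12) in CPM, with a TPM change of -0.27, and its last 2 groups overlapped.

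Gars (glycine), whose promoter window holds the core shown above, was not called at 36 h. It measured 166, 169.7 and 155 CPM at 0 h, 121, 126 and 123 at 12 h, 93.2, 99.6 and 95.9 at 24 h, 118, 116 and 90.8 at 36 h, 86.4, 76.9 and 77.1 at 48 h, and 29.3, 29.5 and 32.3 at 72 h. The 24 and 36 h groups overlapped, and the change of 0.17 between them was not called (adjusted p = 0.0799), but it was called without 36 h replicate 3 (0.27, adjusted p = 0.0038), with DESeq2 size factors (0.20, adjusted p = 0.0417) and by DESeq2's Wald test (0.21, adjusted p = 0.0189). In TPM it was -1.85. Over the course Gars fell by 2.43 (SE 0.0925, adjusted p = 5.91e-16). Sars (serine) rose by 1.30 at 36 h in CPM, with a TPM change of -0.87, and Wars (tryptophan) fell by 0.56 at 12 h and was not called at 36 h (-0.11, adjusted p = 0.455). Across the 12 genes with the core the median change at 36 h was 1.66 (0.17 to 4.25), and across the 17 tested of 19 genes without it the median was 1.10 (-1.71 to 4.53).

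With SA at 12 h, 0 of 36 genes were called higher and 2 lower than at 12 h without it, against 0.0162% and 0.364% of all genes. Without adjustment, 9 of the 36 were lower and 0 higher at p of at most 0.05, against 500 lower and 259 higher of all 12360 genes. DESeq2's Wald test called 3 members lower and 0 higher, against 126 and 25 of all genes. Estimates were below 0 for 33 of 36 genes (91.7%), against 43.5% of all genes. The stress median per library was 0.20, 0.27 and 0.13 with SA against 0.45, 0.47 and 0.54 without it, and the amino acid median -0.18, -0.14 and -0.19 against -0.08, -0.02 and -0.05. In both branches the 3 libraries with SA lay below the 3 without it. Erythroid markers summed to 7400 to 8200 CPM with SA and 10800 to 11300 CPM without it, and their part in the result was not tested.

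Trib3 was the gene that differed most under SA, at 3.24, 3.37 and 2.96 CPM against 10.5, 15.7 and 17.1 CPM, without overlap. The change was -2.17 ± 0.386 (adjusted p = 0.0111). Mthfd2 read 59.0, 63.8 and 61.4 CPM with SA and 87.7, 101 and 97.8 CPM without it, a change of -0.64 ± 0.114 (adjusted p = 0.0111). Both calls were lost when any library except 12 h replicate 1 was left out, at adjusted p up to 0.101 for Trib3 and 0.084 for Mthfd2, with Trib3 estimates still between -2.03 and -2.21. In TPM the Mthfd2 change of -0.57 was not called (adjusted p = 0.33). Chac1 changed by -1.25 ± 0.413 (adjusted p = 0.383) and was not called, and its 3 libraries with SA, at 0.934, 0.834 and 0.785 CPM, lay below those without it at 1.81, 1.74 and 2.60 CPM. An edgeR fit of only the libraries compared called Chac1 lower (-1.28, adjusted p = 0.00844). That fit also called Ddit3 (adjusted p = 0.00764), Sesn2 (0.00743), Slc1a4 (0.0108) and Pycr1 (0.0302) lower, so the number of SA calls depended on the fit. How many of all genes that fit called is not given here. Atf4 itself, at 118, 111 and 110.4 CPM with SA and 112, 111 and 114 CPM without, changed by 0.01 ± 0.11, and Nupr1 by -0.09 ± 0.183. Neither was called.

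Genes around the program changed in both directions from 24 to 36 h, when 34.1% of all genes were called higher and 39% lower. On the TPM scale 409 of 9502 tested genes were called higher and 8484 lower. Of 14 genes of eIF2 and its kinases, phosphatases and exchange factor, 5 were higher and 9 lower by count, and 2 and 12 in TPM. Ppp1r15a (GADD34), the stress-induced subunit that removes the phosphate from eIF2, rose by 3.49, and the HRI gene Eif2ak1 rose by 2.72, while Eif2b1 (-1.75) and the kinase gene Eif2ak3 (-1.39) fell. Of 12 tested other ATF4 targets, 8 were higher and 2 lower by count, including Gadd45a (4.51), Sqstm1 (2.88), Lonp1 (-1.08) and Ero1l (-0.86). Of the 10 present in the TPM test, 2 were called higher and 6 lower there. Ero1l was not called without 24 h replicate 2 or 36 h replicate 1.

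The lists of amino acid and protein stress genes differed at that step. Of 14 other cytosolic synthetases 3 were higher and 8 lower, with Eprs (0.65) and Mars (0.44) up in CPM but at -1.42 and -1.63 in TPM, and Dars (-1.43) and Kars (-1.38) down. Of 17 mitochondrial synthetases 14 were lower, such as Cars2 (-2.93) and Sars2 (-2.29), and Fars2 (3.48) was among the 3 higher, as was Lars2 (1.76 in CPM, -0.32 in TPM). Of 9 tested other folate genes 6 were lower, including Mthfd1 (-2.46), and 1 was higher by count and not in TPM, where no gene of the list was called higher. The unfolded protein response list had 6 of 17 higher and 9 lower by count. Its sensor genes Ern1 (3.31) and Atf6 (2.04 in CPM, -0.02 in TPM) were up and Sdf2l1 (-1.36) and Edem1 (-1.22) down. The sensor gene Eif2ak3, counted above with the eIF2 genes, fell by 1.39. Of 13 tested other amino acid carriers 8 were higher by count, led by Slc43a2 (4.47) and Slc1a3 (4.05), and 2 lower, Slc7a6 (-1.76) among them. Of the 8 carriers present in the TPM test, 3 were called higher and 4 lower there. The TPM calls, higher and lower, were 0 and 14 for the cytosolic synthetases and 1 and 15 for the mitochondrial ones. They were 0 and 7 for the folate genes and 1 and 13 for the unfolded protein response list.

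Some of these neighbours had changed at 12 h, when 25.3% of all genes were called higher and 27.6% lower. Ppp1r15a rose by 2.30, Eif2ak1 by 1.21, Gadd45a by 2.97 and the glycine carrier Slc6a9 by 4.05 against 0 h. Of the 14 eIF2 genes 6 were higher and 5 lower then, and of the 12 other targets 5 were higher and 1 lower. With SA, Ero1l changed by -1.49 and Mthfd1l by -0.42 against 12 h, and both calls were lost when libraries were left out, Ero1l without any but 12 h replicate 1 and Mthfd1l without any 1 of the 6.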

How the data were processed

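The deposited tables hold, for each of 21 libraries, estimated counts per gene and TPM computed by the authors. The genome builds GRCm38.p5 and mm10 and the tools STAR 2.5.3a, kallisto and DESeq2 are named per the submitters' processing notes, and which tool made which table is not given in the sources used here. Of the estimated counts, 78.5% were whole (tolerance 1e-06), and all were rounded. The 38 members and all lists were chosen with earlier results of these data known.

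Counts were fitted with edgeR 4.0.16 in R 4.3.3 (filterByExpr with a minimum count of 10, TMM, quasi-likelihood test, all 7 groups in 1 fit), with Benjamini-Hochberg adjustment over 12360 genes and a threshold of 0.05, two-sided. The standard error is the log2 change divided by the root of F. It rests on a spread estimated over all 7 groups and does not measure the spread of the compared groups alone. The fit was also run on simulated counts with the same spread and composition in every group. That run cannot show how the fit does at the wider spread and shifted composition of the late groups. TPM was tested with limma 3.58.1 on log2(TPM + 1) over genes whose mean TPM reached 1, which holds 34 of the members. A TPM change understates that of low genes. DESeq2 1.42.0, other scalings and filters, a replicate block and leaving out each library were alternatives.

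Every-library values are given for the genes with the largest called change of each role and for Atf4 and Ddit3; those of Mthfd2 and Chac1 were added after their values were seen. From each neighbouring pathway, up to 2 called genes per direction with a mean count of at least 100 are named by size of change. Some items that this rule or the motif search picked are not reported here. Replicate numbers come from the labels. Same-numbered libraries deviated together (every correlation above 0.1 over 6575 genes) for SA against 12 h and for the steps into 24, 48 and 72 h, and not for the other comparisons. Replicates of 1 line may differ less than separate lines would. No table column was without a sample.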

Additional observations from a re-analysis of the deposited data

How the results depend on the processing

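On the count scale no called change of a named gene turned direction, and estimates that crossed 0 were not called on either side. With the replicate block, genes called higher and lower were 15 and 13 (12 h), 7 and 9 (24 h), 27 and 4 (36 h), 17 and 10 (48 h), 6 and 20 (step into 72 h), 21 and 12 (whole course) and 0 and 2 (SA), and of the named genes only Atf4 from 36 to 48 h changed call (0.25, adjusted p = 0.0264).

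Only the counts that differed most, in proportion, from those of the main fit are listed in this paragraph. A count not listed, such as that of genes higher at 36 h with a fold of at least 2 (27 in the main fit), stayed nearer to its main value. A fold of at least 2 left 7 higher and 3 lower at 12 h, 1 and 3 at 24 h, 2 lower at 36 h, 5 and 1 at 48 h, 0 and 10 for the step into 72 h, and 1 lower with SA. Fitting only the libraries compared gave 11 higher at 24 h, 3 higher for the step into 72 h, and 12 lower with SA. For the step into 72 h, 8 were higher with DESeq2 size factors or DESeq2's Wald test and 3 without a count filter. With log2(TPM + 1) there were 3 higher at 24 h, 6 higher and 22 lower at 36 h, 3 and 16 at 48 h, 0 higher for the step into 72 h, 6 and 25 over the whole course, and 1 lower with SA. A pseudocount of 0.1 gave these and 9 higher at 12 h, and all genes above 0 in 3 libraries gave 9 higher at 12 h, 7 and 23 at 36 h, 2 and 16 at 48 h and 6 and 26 over the whole course. The cause of these differences was not tested. With log2(TPM + 1), which held 34 members, 601 of 9502 tested genes were higher at 24 h. At 36 h 409 were higher and 8484 lower, and at 48 h 245 and 5954. There were 437 higher for the step into 72 h, 500 and 8658 over the whole course, and 33 lower with SA. Counts over all genes for the other settings of this paragraph are not given here.

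Leaving out 1 library gave these ranges of higher and lower genes: 14 to 15 and 11 to 12 at 12 h, 5 to 7 and 9 to 10 at 24 h, 27 to 28 and 4 to 5 at 36 h, 10 to 16 and 8 to 11 at 48 h, 2 to 6 and 18 to 21 for the step into 72 h, 20 to 21 and 11 to 12 over the whole course, and 0 and 0 to 2 with SA. Over all genes the ranges were 2786 to 2889 and 3014 to 3139 at 12 h, and 1919 to 2100 and 2153 to 2403 at 24 h. They were 3963 to 4150 and 4598 to 4810 at 36 h, and 1966 to 2515 and 3370 to 3659 at 48 h. For the step into 72 h they were 2803 to 2977 and 4015 to 4238, and over the whole course 5314 to 5428 and 5711 to 5748. With SA, 1 of all genes was higher and 10 to 30 were lower, against 2 and 45 with every library.

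Values that reversed in TPM are given with a pseudocount of 1, then 0.1, only for the gene and step pairs run under every setting. Other members called higher by count with TPM changes below 0 are named in the paragraphs on each step above. At 24 h Cars gave -0.0043 and -0.0043. At 36 h Grb10 gave -0.18 and -0.19, Aars -0.31 and -0.31, Nars -0.27 and -0.27, Sars -0.87 and -0.88, Atf4 -1.02 and -1.03, Nupr1 -1.03 and -1.07, Asns -1.13 and -1.14, Slc7a5 -0.89 and -0.90, Slc38a2 -1.94 and -2.01, Gars -1.85 and -1.89, Mthfd2 -1.97 and -1.99, Cebpg -0.76 and -0.81, and Eif4ebp1 -0.92 and -0.98. Also at 36 h, Eprs gave -1.42 and -1.44, Mars -1.63 and -1.67, Lars2 -0.32 and -0.32, Atf6 -0.016 and -0.017, Nup62 -1.47 and -1.51, Tmem189 -0.40 and -0.42, and Il4i1, over all genes, -0.18. At 48 h Nars gave -0.071 and -0.071. For the step into 72 h Atf4 gave -0.0028 and -0.0036, Herpud1 -0.079 and -0.085, Slc1a4 -0.15 and -0.28, and Eif4ebp1 -0.17 and -0.18. Over the whole course Aars gave -1.39 and -1.43, Nars -1.30 and -1.31, and Atf4 -0.48 and -0.48. Counts were few for Nupr1 and Chac1 at 0 h, Cth, Vldlr, Slc7a11 before 36 h, Stc2 and Cbs, which limits their precision.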
